A study of Sus scrofa with 12 samples.

Results

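PPARG and CEBPA, the transcription factors that drive fat cell formation, were read by 3 probe sets of the Affymetrix porcine genome array. They are 2 of the 6765 genes that the platform annotation names on this array. Every probe set annotated with either symbol was taken, which gave 1 for PPARG and 2 for CEBPA out of 23999 tested, the CEBPA ones called A1 and S1 here after the endings of their identifiers. Each probe set pools several short probes into a single value. Total RNA of pig cells was measured on 12 arrays, 3 for each of 4 groups. Mature adipocytes (MA) came from fat tissue. Their cultured descendants (DFAT) had passed through ceiling culture, where buoyant fat cells stick to the top of a full flask, and were harvested at semiconfluence. Granulosa cells (GC), which surround the oocyte, came from ovarian follicles. DFOG is the name of their dedifferentiated offspring, likewise harvested at semiconfluence after culture in vitro. The labels give no genotype, strain, age or agent for any group. They name the replicates as biological but tie them to no animal or culture, so p-values measure only the spread between these samples, which may be technical. The study looked for functions whose genes go up or down as the 2 cell types dedifferentiate. Because both lineages set isolated against cultured cells, dedifferentiation and culture itself cannot be told apart. In bulk RNA, fewer cells of a type and less RNA per cell cannot be told apart either.

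PPARG is a nuclear receptor for fatty acids and their derivatives. It binds DNA as a pair with a retinoid X receptor (RXR) and switches on genes of lipid uptake and storage. CEBPA is a leucine zipper factor of the C/EBP family. In fat cell formation CEBPB and CEBPD come first, PPARG and CEBPA follow, and these last factors maintain each other's expression. PPARG is also known from granulosa cells of several mammals, where it is tied to follicle growth and steroid production.

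DFOG replicates 2 and 3 were nearly identical. Their log2 values differed with an SD of 0.07, against 0.31 to 0.62 in the 11 other pairs within groups, so they were averaged into 1 sample and DFOG has n = 2. Averaged over each marker list, the labelled cell types fitted their markers. Over the 8 measured of 10 adipocyte markers, the mean level was 12.07 to 12.35 (log2) on the MA arrays and 5.46 to 5.63 on the GC arrays. Over 11 granulosa markers it was 9.69 to 10.04 on the GC arrays and 5.49 to 5.76 on the MA arrays. Of these, 8 were lower in MA than in GC by the test below, against 22.6% of named genes. The remaining 3, FOXL2, CYP19A1 and INHBA, did not pass, with means of 5.56, 4.95 and 7.97 in GC and 5.70, 5.03 and 7.90 in MA. Without detection calls, weak signal and background look the same, and a change that starts or ends near the floor is understated.

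PPARG was highest in isolated fat cells, next highest in isolated granulosa cells, and fell in both cultures. The log2 levels were 12.09, 12.49 and 12.57 on the MA arrays and 7.72, 7.99 and 7.93 on the DFAT arrays. They were 10.67, 9.30 and 9.95 on the GC arrays and 5.77, 5.00 and 4.97 on the DFOG arrays. No 2 groups overlapped: every MA array lay above every GC array, every GC array above every DFAT array, and every DFAT array above every DFOG array. On each array's own scale, PPARG stood between the 98.4th and 98.8th percentile of all tested probe sets in MA, between 86 and 94.2 in GC, between 66.5 and 69.4 in DFAT, and between 31.3 and 41.7 in DFOG.

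**Figure D1:**
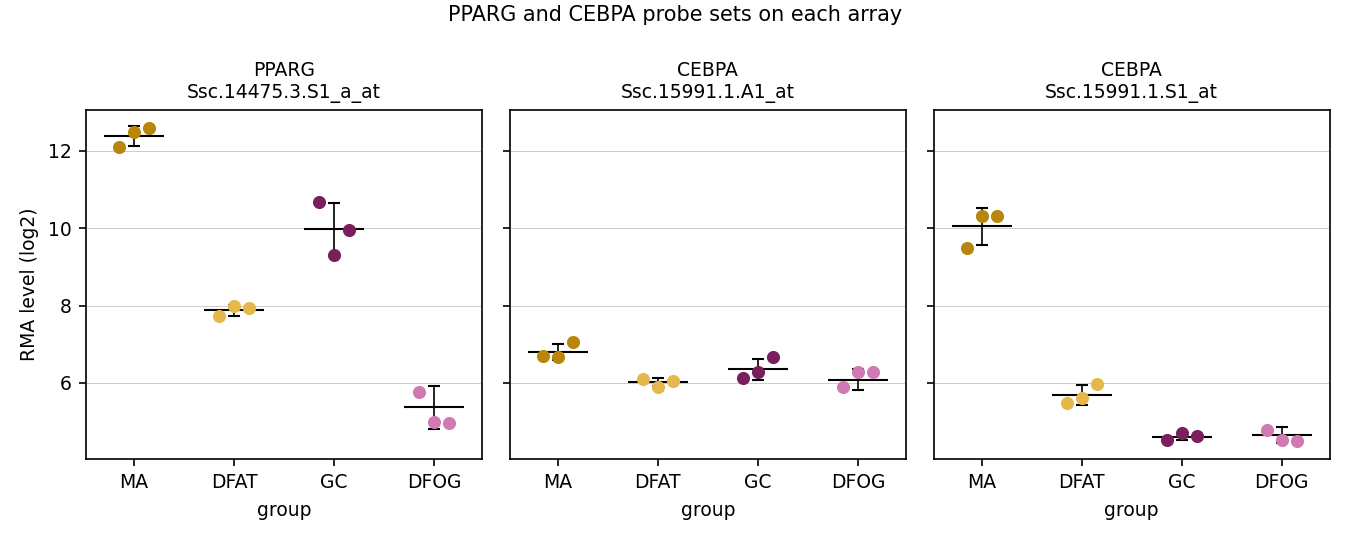
Log2 level (RMA) of the PPARG probe set and of both CEBPA probe sets on each array, by group. Points are arrays, horizontal lines are group means and bars are SD over samples, with DFOG replicates 2 and 3 averaged first (n = 2 for DFOG, n = 3 elsewhere). PPARG fell in both cultures, whereas CEBPA S1 was high in MA alone and CEBPA A1 stayed between 5.89 and 7.05 everywhere.

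The MA mean of PPARG was 12.38 ± 0.26 (SD, n = 3), the DFAT mean was 7.88 ± 0.14 (SD, n = 3), and PPARG fell by 4.51 ± 0.32 (SE) on the log2 scale, or 22.8-fold (95% interval 14.0 to 37.0, limma adjusted p = 1.29e-06). In granulosa cells the GC mean was 9.98 ± 0.68 (SD, n = 3), the DFOG mean was 5.38 ± 0.55 (SD, n = 2), and PPARG fell by 4.60 ± 0.36 (SE), or 24.3-fold (95% interval 14.1 to 41.8, limma adjusted p = 3.99e-06). With the arrays centred on the poly-A controls, RNAs added during labelling, PPARG fell by 3.88 in fat cells and by 5.39 in granulosa cells, and with the first actin pair as a covariate by 5.52 in fat cells. Such centring shifts all probe sets of an array by the same amount, so counts of genes under it carry that shift. The shares of probe sets or named genes given beside such counts are without it. All 3 PPARG and CEBPA probe sets fell in DFAT, where 16.4% of all tested probe sets did, and 1 of 3 fell in DFOG, where 12.6% did. The PPARG fall ranked as number 110 among the falls of the 23999 probe sets in fat cells and as number 78 in granulosa cells.

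The difference between the 2 PPARG falls was 0.09 ± 0.48 (SE, limma adjusted p = 0.925, against 23.3% of probe sets that passed this test). Its 95% interval ran from -0.96 to 1.14 on the log2 scale, so the data allow falls that differ by about that much in either direction. Poly-A centring gave a difference of 1.51 (limma adjusted p = 0.0186), where the median over all probe sets became 1.37, and PPARG lay 0.14 from it. Over all alternatives the adjusted p of this difference ran from 0.0186 to 0.975. By their main probe sets, 5 named genes fell by at least 4 log2 units and passed the test in both lineages, a bound picked after the values were seen. They were PPARG, PDK4, which inhibits pyruvate dehydrogenase, CDO1, which degrades cysteine, FOS, an immediate early transcription factor, and MAL2, a protein of vesicle traffic.

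PPARG was higher in MA than in GC by 2.41 ± 0.32 (SE, 5.31-fold, 95% interval 3.27 to 8.63, limma adjusted p = 9.94e-05), in a contrast where 20.7% of probe sets were higher. With poly-A centring this difference was 1.06 (limma adjusted p = 0.00868). It was higher in DFAT than in DFOG by 2.50 ± 0.36 (SE, 5.66-fold, 95% interval 3.29 to 9.74, limma adjusted p = 0.000966), where 3.7% of probe sets were higher. GC also exceeded DFAT by 2.10 ± 0.32 (SE, limma adjusted p = 0.000366), so isolated granulosa cells held more PPARG signal than cultured fat cells, and the excess was 2.81 with poly-A centring. This last contrast was added after the data were seen, and 17.5% of probe sets were higher and 16.7% lower in it. The order MA, GC, DFAT, DFOG therefore held with a passing test between each pair of neighbours.

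The 2 CEBPA probe sets disagreed. S1 read 9.50, 10.32 and 10.32 on the MA arrays and 5.48, 5.62 and 5.97 on the DFAT arrays. It read 4.52, 4.70 and 4.62 on the GC arrays and 4.79, 4.52 and 4.50 on the DFOG arrays. MA stood apart from all other arrays, DFAT lay a little above the granulosa arrays, and GC and DFOG overlapped. A1 read 6.69, 6.66 and 7.05 in MA, 6.10, 5.90 and 6.06 in DFAT, 6.12, 6.29 and 6.66 in GC, and 5.89, 6.28 and 6.27 in DFOG. On A1 the MA and GC arrays met at 6.66, DFAT lay just below GC, and DFOG overlapped both DFAT and GC. By its mean over the 12 arrays A1 is the main CEBPA probe set, at 6.33 against 6.24 for S1, a margin of 0.09. Over the 11 samples of the fit the order turns, with S1 ahead by 0.06, so both are given in full.

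The MA mean of CEBPA S1 was 10.05 ± 0.48 (SD, n = 3) and its DFAT mean was 5.69 ± 0.25 (SD, n = 3). It fell by 4.36 ± 0.23 (SE), or 20.5-fold (95% interval 14.4 to 29.1, limma adjusted p = 1.57e-07), where PPARG fell by 4.51. In granulosa cells the S1 mean was 4.61 ± 0.09 (SD, n = 3) before culture and 4.65 ± 0.20 (SD, n = 2) after it, between the 25.4th and 29.9th percentile of each array. Its change there was 0.04 ± 0.26 (SE, 95% interval -0.53 to 0.61, limma adjusted p = 0.949), at a level from which a fall could hardly be seen. The S1 change differed between the lineages by -4.39 ± 0.35 (SE, limma adjusted p = 7.01e-06), or -2.97 with poly-A centring. Both PPARG and CEBPA S1 thus passed the test in fat cells, and in granulosa cells PPARG passed and S1 did not.

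S1 was higher in MA than in GC by 5.43 ± 0.23 (SE, 43.2-fold, limma adjusted p = 1.68e-08), or 4.09 with poly-A centring. After culture DFAT kept an excess of 1.04 ± 0.26 (SE) over DFOG (limma adjusted p = 0.0309), and GC minus DFAT was -1.08 ± 0.23 (SE, limma adjusted p = 0.00381), so DFAT was above GC as well. The excess over DFOG missed the threshold without GC replicate 3 (adjusted p = 0.0506), DFAT replicate 2 (adjusted p = 0.0635), DFAT replicate 3 (adjusted p = 0.0888), DFOG replicate 1 (adjusted p = 0.0914), or DFOG replicates 2 and 3 (adjusted p = 0.199). Without either DFOG sample the other is alone, and is assumed to vary like the other groups. It also missed it with only the 2 groups fitted (adjusted p = 0.0632), with the second actin pair as a covariate (adjusted p = 0.0978), and with poly-A centring (adjusted p = 0.139), where the excess over GC missed it too (adjusted p = 0.375). Over all alternatives the adjusted p of the excess over DFOG ran from 0.00607 to 0.199.

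CEBPA A1 had an MA mean of 6.80 ± 0.22 (SD, n = 3) and a DFAT mean of 6.02 ± 0.11 (SD, n = 3), and fell by 0.78 ± 0.19 (SE, limma adjusted p = 0.00798). That call was lost with poly-A centring (-0.15, adjusted p = 0.716) and with the 3′ minus 5′ difference of the first pair of actin controls as a covariate (-0.62, adjusted p = 0.197), not with that of the second pair (-0.77, adjusted p = 0.0155), and over all alternatives, S1 in place of A1 included, the adjusted p ran from 1.57e-07 to 0.716. The other A1 contrasts did not pass as deposited. The values were -0.27 ± 0.21 (SE, limma adjusted p = 0.429) for DFOG minus GC, 0.45 ± 0.19 (SE, limma adjusted p = 0.0820) for MA minus GC and -0.06 ± 0.21 (SE, limma adjusted p = 0.962) for DFAT minus DFOG. The difference between the 2 dedifferentiations was -0.51 ± 0.28 (SE, limma adjusted p = 0.248) for A1, against -4.39 for S1. With poly-A centring A1 passed in DFOG minus GC (-1.06, adjusted p = 0.0273) and, with the sign turned, in MA minus GC (-0.90, adjusted p = 0.0164). For CEBPA, then, the direction in fat cells was the same on both probe sets, while its size and the call on the difference between lineages depend on the probe set.

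Among the other C/EBP factors none of the 4 measured members passed the test in fat cells, where 41.1% of the 6765 named genes did, although with poly-A centring 2 of them were higher. CEBPB, an early factor of fat cell formation, read 12.94, 12.86 and 12.65 in MA and 11.38, 12.25 and 12.14 in DFAT, a change of -0.89 (limma adjusted p = 0.105). CEBPD, its early partner, went from 10.35 ± 0.13 to 10.83 ± 0.52 (SD, n = 3 each), a change of 0.48 (limma adjusted p = 0.178), and the stress factor DDIT3 from 9.48 to 9.77, which did not pass either. CEBPD has 3 probe sets, and none passed in either lineage. In granulosa cells 2 of 4 members rose, against 17.3% of named genes. CEBPB, read at 11.40, 11.33 and 9.83 in GC and at 12.56, 12.16 and 12.02 in DFOG, rose by 1.47 ± 0.43 (SE, limma adjusted p = 0.0271), and CEBPG rose by 0.94 (limma adjusted p = 0.00522). With poly-A centring neither passed (adjusted p = 0.182 and 0.725). CEBPD did not pass (0.31), nor did DDIT3 (-0.16).

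The lineages differed in the C/EBP genes too. All 4 were higher in MA than in GC, where 26.8% of named genes were, by 1.96 for CEBPB, 1.89 for CEBPD, 2.20 for CEBPG and 1.49 for DDIT3, and with poly-A centring only CEBPG was. After culture CEBPD (2.06), CEBPG (1.30) and DDIT3 (1.93) were higher in DFAT than in DFOG, against 4.86% of named genes. CEBPB changed differently in the 2 lineages (-2.36, limma adjusted p = 0.0118), a call lost with poly-A centring (adjusted p = 0.152).

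**Figure D2:**
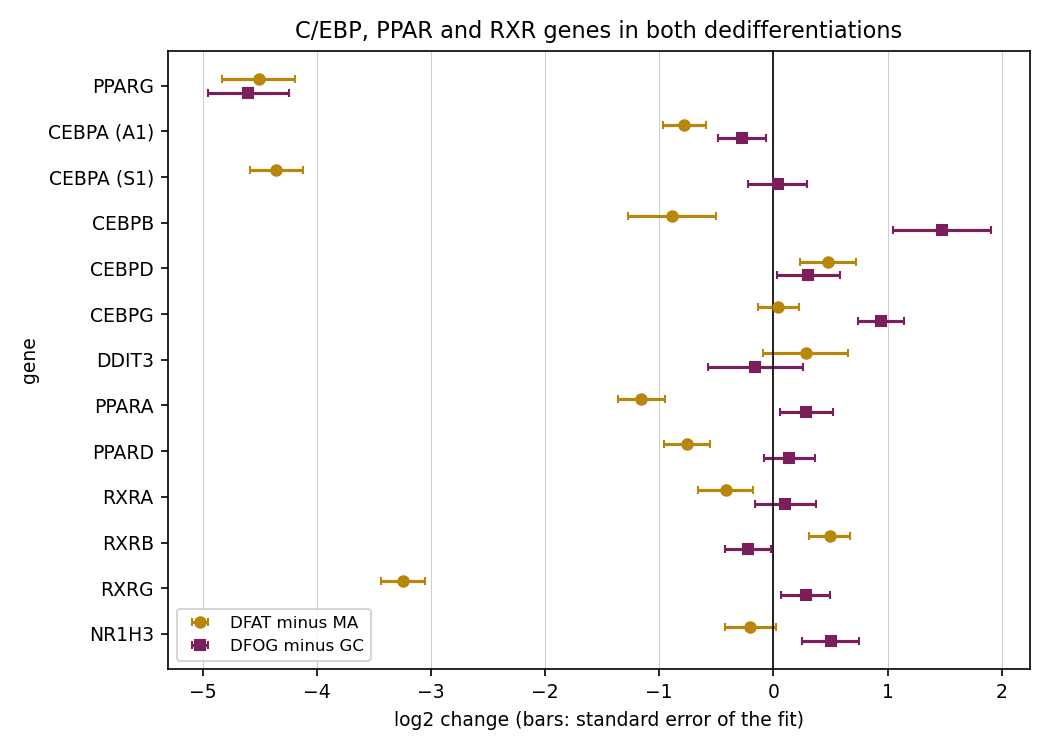
Log2 change in both dedifferentiations for PPARG, both CEBPA probe sets and the measured C/EBP, PPAR and RXR genes with the oxysterol receptor NR1H3. Circles are DFAT minus MA, squares are DFOG minus GC and bars are the standard error of the fit; PPARG is the one gene shown with a fall beyond 4 in both, while CEBPA S1 and RXRG lie far left for fat cells and near 0 for granulosa cells.

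Of the PPAR and RXR family 3 of 6 measured members fell in fat cells and none rose, against 20.4% of named genes that fell, and with poly-A centring 1 fell and 1 rose. RXRG, one of the 3 RXR partners of PPARG, read 9.39, 8.88 and 8.75 in MA and 5.91, 5.85 and 5.52 in DFAT, and fell by 3.25 ± 0.19 (SE, limma adjusted p = 3.39e-07). Its GC mean was 5.32 ± 0.14 (SD, n = 3) and its DFOG mean 5.60 ± 0.01 (SD, n = 2), so it stood high in MA alone, as CEBPA S1 did. The RXRG changes differed between the lineages by -3.53 (limma adjusted p = 9.03e-06). PPARA, the receptor of fat burning tissues, fell by 1.16 (limma adjusted p = 0.00132) and the broadly expressed PPARD by 0.76 (limma adjusted p = 0.0133), both calls lost with poly-A centring (adjusted p = 0.227 and 0.770). Neither passed on the other probe sets of its gene, at -0.32 for PPARA and -0.64 and -0.59 for PPARD. RXRA (-0.42), RXRB (0.49) and NR1H3 (-0.20) did not pass.

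In granulosa cells none of the 6 passed, in a contrast where 30.6% of named genes did. The changes were 0.29 for PPARA, 0.14 for PPARD, 0.10 for RXRA, -0.22 for RXRB, 0.28 for RXRG and 0.50 for NR1H3. PPARG itself, which is not among these 6, did pass, and with poly-A centring 1 of the 6 fell. In MA against GC, 4 of the 6 were higher and 1 lower, against 26.8% and 22.6% of named genes, or 1 and 2 with poly-A centring. RXRB was lower in MA than in GC by 0.93 (limma adjusted p = 0.00164).

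Genes known to act upstream of PPARG and CEBPA mostly fell in fat cells, with 6 of 9 measured activators falling and none rising, against 20.4% and 20.7% of named genes. With poly-A centring 2 fell and 2 rose. KLF4, an early inducer of CEBPB, fell by 1.86, KLF15, which activates PPARG and GLUT4 in adipocytes, by 1.79, KLF9 by 1.38, STAT5A by 1.33, the glucocorticoid receptor NR3C1 by 0.88 and STAT5B by 0.75, of which the last 4 calls were lost with poly-A centring. Of the other NR3C1 probe sets, that at -0.74 fell, and those at -0.73 and -0.008 did not pass. In granulosa cells 3 of 9 fell and 2 rose, against 13.4% and 17.3% of named genes. KLF4 fell by 3.01, STAT5A by 1.72 and KLF15 by 1.51. KLF9 read 5.01, 3.96 and 3.41 in GC and 7.47, 8.80 and 8.78 in DFOG, and rose from a mean of 4.13 to one of 8.13 (SE of the change 0.47, limma adjusted p = 8.72e-05), opposite to its change in fat cells (difference -5.38, limma adjusted p = 0.000114). The other KLF9 probe set passed in neither lineage (-0.42 and -0.13). KLF4, KLF15 and STAT5A fell in both lineages, as PPARG and 343 of the 6765 named genes did. The STAT5A fall in fat cells did not pass with poly-A centring. Of the other STAT5A probe sets, 1 passed in neither lineage (-0.33 and -0.46), and the remaining one passed in fat cells alone (-1.63 and -1.43).

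Known inhibitors of fat cell formation moved both ways. In fat cells 5 of 15 rose and 2 fell, against 20.7% and 20.4% of named genes, and with poly-A centring 7 rose and none fell. GATA3, which represses PPARG, read 6.22, 6.25 and 6.16 in MA and 8.28, 9.16 and 8.66 in DFAT, and rose by 2.49 ± 0.21 (SE, limma adjusted p = 4.37e-06). Of its other probe sets, those at 2.36 and 1.48 rose and that at 0.05 did not pass. ID3 rose by 2.19, TGFB1 by 2.15, HES1 by 1.24 and NR2F2 by 0.76 (its other probe sets, between -0.11 and 0.20, did not pass), while KLF2 fell by 0.94 and FOXO1 by 0.66, both falls lost with poly-A centring. In granulosa cells 6 rose and 4 fell, against 17.3% and 13.4% of named genes, or 3 and 6 with poly-A centring. TGFB1, a growth factor, rose by 4.37 ± 0.46 (SE), whereas ID2 fell by 3.53, the insulin-regulated factor FOXO1 fell by 2.97 and the Wnt effector TCF7L2 fell by 2.58. FOXO1 read 13.29, 13.30 and 13.31 on the GC arrays and 10.08, 10.58 and 10.56 in DFOG, and its other probe set fell by 0.69. Among 7 measured coactivators and corepressors, 3 fell in fat cells (NCOA1 by 1.32, NCOA4 by 1.23, NCOA2 by 0.64) and 2 in granulosa cells (NCOA1 by 1.35, NCOA4 by 1.16), against 20.4% and 13.4% of named genes. The other NCOA2 probe sets did not pass in fat cells (-0.74 and -0.53), nor did the NCOA1 probe set at -0.82 in granulosa cells. With poly-A centring none fell in fat cells and 6 did in granulosa cells. The list's median then lay -0.24 and -0.34 from that of all probe sets.

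Genes known as targets of PPARG and CEBPA in fat cells mostly fell in fat cells. In granulosa cells the shares of them that fell and rose were near those of all named genes. Of 29 measured target genes 23 fell in fat cells and none rose, against 20.4% of named genes that fell, with a median change of -2.45 against -0.07 over all probe sets. The 8 measured adipocyte markers read above for the cell labels are all on this list, and all fell. With poly-A centring 18 fell and 1 rose. ADIPOQ, the hormone adiponectin, fell by 8.21 ± 0.37 (SE), PDK4 by 7.25, the hormone-sensitive lipase LIPE by 6.34, DGAT2, which makes triglyceride, by 5.90, GPD1, which supplies its glycerol backbone, by 5.66, and lipoprotein lipase LPL by 5.42. In granulosa cells 5 of the 29 fell and 5 rose, against 13.4% and 17.3% of named genes, with a median of -0.02. With poly-A centring 10 fell and 3 rose, and the list's median lay 0.00 from that of all probe sets.

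The 29 targets were also read in the test of the difference itself. Of them 23 were higher in MA than in GC and 2 lower, against 26.8% and 22.6% of named genes (19 and 6 with poly-A centring). A target already low in GC could hardly fall there. For such genes this test cannot separate a response of the lineage from the starting level. In 19 the change was lower in fat cells than in granulosa cells and in 1 it was higher, against 15.9% and 13.2% of named genes, or 13 and 4 with poly-A centring. ADIPOQ and FABP4, textbook PPARG targets, stood at 4.19 ± 0.26 and 3.31 ± 0.13 (SD, n = 3) in GC, on arrays where PPARG read 9.30 to 10.67. FABP4 in GC lay between the 5.91st and 8.85th percentile of the array and ADIPOQ between the 18th and the 26.5th. Other targets were high in GC, with means of 11.05 for ACADM, 10.91 for AGPAT2, 9.45 for FASN, 9.25 for PNPLA2 and 9.13 for PDK4. AGPAT2 and SLC27A1 were the 2 that were lower in MA than in GC. The part of PPARG in these levels was not tested.

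The 5 targets that fell in granulosa cells also fell in fat cells, where 23 of the 29 fell, and are named because they are so few. Of the 6765 named genes 343 fell in both lineages. PDK4 read 12.06, 11.36 and 11.52 in MA, 3.82, 4.64 and 4.73 in DFAT, 9.37, 8.61 and 9.40 in GC, and 3.91, 4.42 and 4.38 in DFOG. Both isolated cell types lay above both cultures, as for PPARG, and PDK4 fell by 4.97 ± 0.34 (SE, limma adjusted p = 1.64e-06) in granulosa cells. AGPAT2, an acyltransferase of triglyceride synthesis, fell by 3.07 in granulosa cells and 1.61 in fat cells, HSD11B1, which regenerates active glucocorticoid, by 1.97 and 2.87, the fatty acid transporter SLC27A1 by 1.42 and 1.20, and the lipase inhibitor ANGPTL4 by 1.10 and 2.55. The other ANGPTL4 probe set did not pass in granulosa cells (-0.98). The fat cell calls of AGPAT2 and SLC27A1 were lost with poly-A centring (adjusted p = 0.0597 and 0.182).

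The 5 of 29 targets that rose in granulosa cells are a share near the 17.3% of all named genes that rose there, and are named because they are so few. CAV1, the coat protein of caveolae, rose by 5.53 ± 0.25 (SE) and the acyl-CoA synthetase ACSL1 by 3.95 ± 0.22 (SE). FABP4, the fatty acid carrier, read 3.18, 3.43 and 3.31 in GC and 5.09, 6.17 and 6.13 in DFOG, and rose by 2.31 ± 0.40 (SE, limma adjusted p = 0.00146). The monoglyceride lipase MGLL rose by 1.34 and the desaturase SCD by 1.23, both calls lost with poly-A centring (adjusted p = 0.276 and 0.357), and the other MGLL probe set did not pass (0.20). Of these 5, all but CAV1 fell in fat cells. After culture 9 of 29 targets were higher in DFAT than in DFOG and none was lower, against 4.86% and 5.5% of named genes (11 and none with poly-A centring), with FABP4 higher by 4.07 ± 0.40 (SE).

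**Figure D3:**
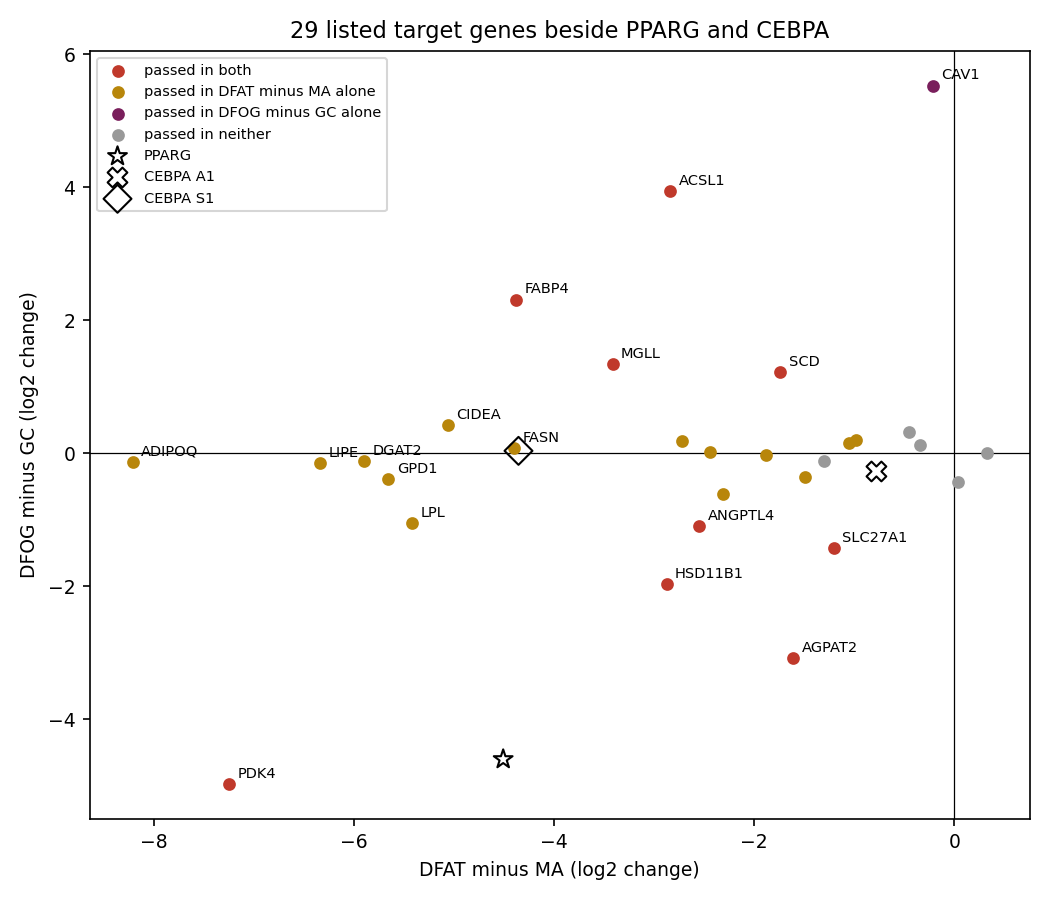
Log2 change in fat cells (DFAT minus MA, horizontal) and in granulosa cells (DFOG minus GC, vertical) of the 29 measured target genes, coloured by whether limma's adjusted p was under 0.05, with PPARG and both CEBPA probe sets as open symbols. Most targets lie on the left near 0 on the vertical axis, as CEBPA S1 does; PDK4 lies lowest beside PPARG, and CAV1 and ACSL1 lie highest.

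Over all 6 lists, less PPARG and CEBPA, 70 of 103 genes were measured. In fat cells 37 fell and 5 rose, against 20.4% and 20.7% of named genes. In granulosa cells 14 fell and 15 rose, against 13.4% and 17.3%. In MA against GC 40 were higher and 7 lower, against 26.8% and 22.6%, and in DFAT against DFOG 18 were higher and 5 lower, against 4.86% and 5.5%. With poly-A centring the splits were 21 and 14, 27 and 7, 24 and 31, and 18 and 3 in the same order. In DFAT against DFOG the number passing dropped from 23 to 13 without DFOG replicate 1, with only the 2 groups fitted, or with the second actin pair as a covariate.

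The named genes whose levels followed PPARG most closely over the 11 samples were led by EPHX2, the soluble epoxide hydrolase (Pearson r = 0.98). MAL2, NFKBIA, the inhibitor of NF-kB, NPC1, which moves cholesterol out of lysosomes, RASGEF1B, IVD, an enzyme of leucine breakdown, ANG, MYLIP, which marks the LDL receptor for degradation, KLF15 and GADD45G followed, down to r = 0.95. EPHX2 averaged 11.81 in MA, 10.62 in GC and 8.80 in DFAT, and was lowest in DFOG. All 10 were taken from 1235 named genes with an SD of at least 1, the samples fall into 4 groups so that r mostly reflects group means, and 6 of the 10 also had a Spearman rank of 10 or better, with tied genes sharing the best rank.

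CEBPA S1 had other neighbours. PAQR6 (r = 0.99), EGFLAM, ALDH1L1, a folate enzyme, SGK2, FXYD7, PTGR1, DGAT2, GPD1 and the adiponectin receptor ADIPOR2 were among its top 10 with 1 uncharacterised locus, down to r = 0.99, and DGAT2 and GPD1 are on the target list. They share a high level in MA and lower levels in the 3 other groups. Of these 10, 6 had a Spearman rank of 10 or better. For CEBPA A1, the main probe set by its mean, the closest were CCDC28A (r = 0.92), PLA2G16, PIR, HOGA1, GSTK1, AQP11, SHMT1, SESN1, COX7A1 and SEC31B (r = 0.88), and 6 had a Spearman rank of 10 or better.

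**Figure D4:**
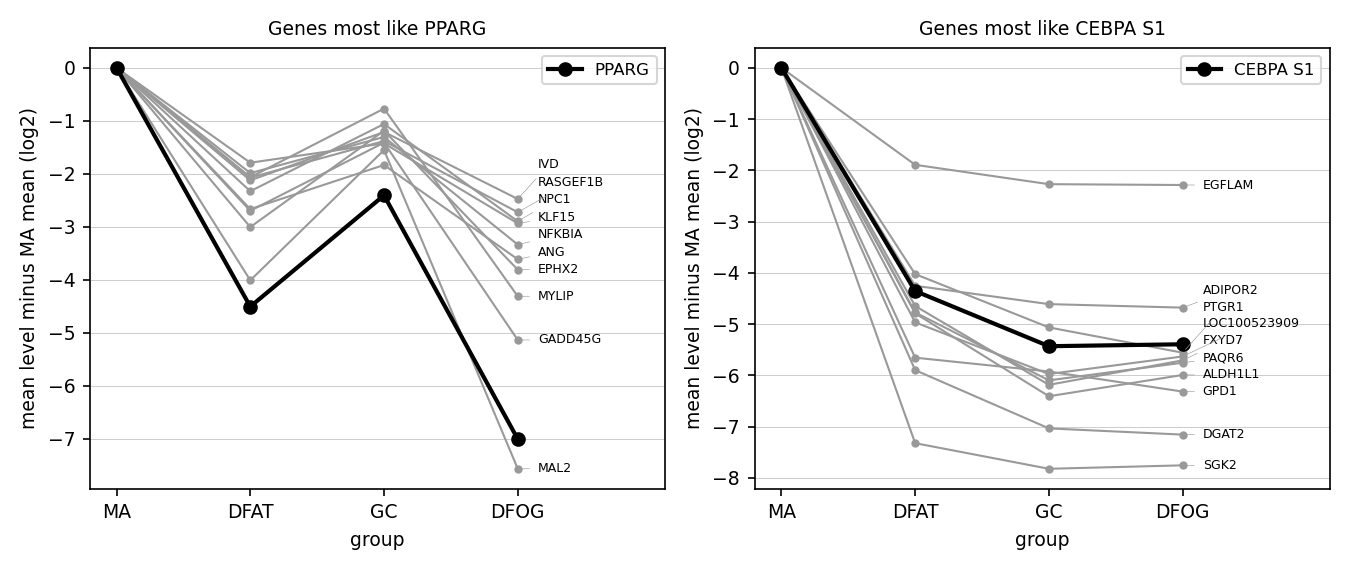
Group means, less the MA mean, of the 10 named genes most correlated with PPARG (left) and with CEBPA S1 (right) over 11 samples; the black line is PPARG or CEBPA S1. On the left GC lies above DFAT and DFOG is lowest, and on the right MA stands alone.

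Markers of other cells moved along with some of these comparisons. Of 8 measured of 13 macrophage markers 6 fell in fat cells, against 20.4% of named genes. The mean level of the 8 was 5.64 to 6.50 on the MA arrays and 4.26 to 4.46 on the DFAT arrays. Macrophages can express PPARG, and their part in the fat cell result was not tested. Across MA replicates 1 to 3, C1QC (4.74, 8.12 and 8.40), CD163 (6.04, 6.14 and 6.52), C1QA, CD14 and CD74 read higher at each step. PPARG had that order too (12.09, 12.49 and 12.57). LAPTM5 (5.90, 5.25 and 5.86), AIF1 and FCGR1A did not follow it. The order was not particular to macrophage markers. The adipocyte markers LIPE (12.24, 12.65 and 12.82), LPL, GPD1, CIDEA and CFD had it, whereas ADIPOQ (14.18, 14.12 and 13.67), FABP4 and LEP did not. Of the stromal markers THY1, COL1A2, DCN and LUM had it, and PDGFRB and COL3A1 did not. The 3′ minus 5′ difference of the first actin pair was lower at each step. In GC the macrophage mean was 4.19 to 4.39, with CD163 at 4.04 to 4.31, and in DFOG it was 4.29 to 4.50. Endothelial markers averaged 5.47 to 6.06 in MA and 4.86 to 5.15 in DFAT, and 4.98 to 5.12 in GC and 4.99 to 5.07 in DFOG. Theca markers averaged 7.86 to 8.15 in GC and 6.09 to 6.11 in DFOG. This list of 5 shares LHCGR with the granulosa list, at a mean of 11.79 in GC and 5.77 in DFOG. CYP17A1, the androgen enzyme of theca cells, was at 4.67 to 4.99 in GC, INSL3 was at 8.06 to 9.59, and the part of theca cells was not tested.

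Stromal markers averaged 7.69 to 8.81 in MA, 10.79 to 11.41 in DFAT, 5.38 to 5.70 in GC and 9.58 to 9.77 in DFOG. In each lineage 5 of 6 rose, against 20.7% of named genes in fat cells and 17.3% in granulosa cells. The part of stromal and cycling cells in the PPARG changes was not tested. Cell cycle markers averaged 4.74 to 5.13 in MA and 7.55 to 9.61 in DFAT, but 9.32 to 10.14 in GC and 8.75 to 9.28 in DFOG. The array holds 2 pairs of actin control probe sets at the 3′ and 5′ ends of the transcript, whose difference grows when RNA is shorter. In the first pair it was 1.88 ± 0.52 in MA and 1.35 ± 0.55 in GC (SD, n = 3), 0.61 ± 0.33 in DFAT (SD, n = 3) and 0.39 ± 0.33 in DFOG (SD, n = 2). In the second pair the order in fat cells was the other way, at 0.42 ± 0.36 in MA and 0.74 ± 0.53 in DFAT (SD, n = 3), with 0.16 ± 0.46 in GC (SD, n = 3) and -0.14 ± 0.17 in DFOG (SD, n = 2). PPARG fell in both lineages under every alternative run, either pair as a covariate included, with a limma adjusted p of at most 0.000815.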

How the data were processed

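The deposited values are on a log2 scale, and the submitters' processing notes name RMA (robust multi-array average) as the authors' method, while its software and settings are not given in the sources used here. Since RMA forces the arrays to 1 distribution, a change is read against the rest of the array. Of 24123 probe sets, 124 Affymetrix controls were left out. Of the 23999 tested, 10069 had 1 gene symbol in the platform annotation, 198 several and 13732 none here. A gene is given by its probe set with the highest mean over the 12 arrays.

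A model with 1 mean per group was fitted over all groups in R 4.3.3 with limma 3.58.1 (11 samples, 7 residual degrees of freedom) and tested two-sided. Benjamini-Hochberg adjustment ran across the 23999 probe sets, with rose or fell written where the adjusted p was under 0.05. The fit was tested on simulated data. Figures were drawn in Python 3.11.15 with matplotlib 3.10.9.

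The members, the 6 network lists and the marker lists (adipocyte, granulosa, macrophage, endothelial, theca, stromal, cell cycle) were chosen with earlier results of these data known. Named genes are all C/EBP, PPAR and RXR members, in each other list up to 6 with the largest passing change in fat cells and 4 in granulosa cells, and the 10 most correlated genes. Members of groups of 5 or fewer, and examples beside them, were named after their values were seen. Alternatives covered array weights, the prior, normalization, filtering, an actin covariate, a replicate block and each array left out. Replicate numbers were not taken as pairs. The GC minus DFAT contrast, the second actin pair as a covariate, and the alternatives and correlated genes of CEBPA S1, were added after the data were seen.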

Additional observations from a re-analysis of the deposited data

Results flagged for a closer look

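The change of CEBPA on its S1 probe set differed between the 2 dedifferentiations, by -4.39 on the log2 scale (limma adjusted p = 7.01e-06). Every DFAT array lay below every MA array, while the GC and DFOG arrays overlapped at a low level. The other CEBPA probe set gave -0.51 for the same difference and did not pass.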

How the results depend on the processing

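PPARG kept its direction and call under every alternative run in DFAT minus MA (-5.52 to -3.88), DFOG minus GC (-5.39 to -4.21), MA minus GC (1.06 to 2.83), DFAT minus DFOG (2.11 to 3.02) and GC minus DFAT (1.75 to 2.81). CEBPA S1 did so in DFAT minus MA (-4.63 to -3.72), MA minus GC (4.09 to 5.71) and the difference between the dedifferentiations (-4.67 to -2.97). That difference for PPARG, near 0, turned sign with array weights (-0.18) and the first actin pair as a covariate (-0.15), ran from -0.26 to 0.48 as single arrays were left out, and was -0.30 without DFOG replicates 2 and 3; with poly-A centring it passed at 1.51. With poly-A centring CEBPA A1 gave -0.15 (lost) in DFAT minus MA, -1.06 (now passing) in DFOG minus GC, -0.90 (reversed) in MA minus GC, 0.91 (reversed) for the difference, 0.016 (reversed) in DFAT minus DFOG and 1.05 (now passing) in GC minus DFAT. The first actin pair gave -0.62 (lost) in DFAT minus MA. In MA minus GC, A1 passed with quantile normalization again (0.52), and with the replicate block and DFOG replicates 2 and 3 apart (0.45). Left-out samples gave 0.32 to 0.60 there, passing without GC replicate 3, and -0.25 to 0.13 in DFAT minus DFOG. The mean over both CEBPA probe sets gave 2.94 in MA minus GC, -2.45 for the difference, 0.49 in DFAT minus DFOG and -0.37 in GC minus DFAT. The other probe set gave 5.43, -4.39, 1.04 and -1.08 in that order, and 0.038 in DFOG minus GC. S1 in DFOG minus GC, near 0, turned to -0.010 with DFOG replicates 2 and 3 apart, with or without the replicate block, -0.75 with poly-A centring, -0.17 with the first actin pair, and -0.11 to 0.084 as single arrays were left out. Network genes passing in DFAT minus DFOG numbered 13 with only those groups fitted, 13 with the second actin pair as a covariate (added after the data were seen), and 13 to 26 as samples were left out. The cause of these shifts was not tested, and a DFOG arm left with 1 sample takes its spread from the other groups. Same-numbered samples correlated at 0.0999 to 0.168 in fat cells and 0.355 to 0.604 in granulosa cells, each best with its own number in 6 of 6, a hint from the data only. DFOG with n = 2 and the lack of detection calls limit what low levels show.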
